A study of Rattus norvegicus with 35 samples.

Results

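Heme synthesis and iron handling genes of rat liver were followed across 6 dose groups of TBB (2-ethylhexyl-2,3,4,5-tetrabromobenzoate), a brominated flame retardant ester. The rule named 9 genes, taken by their roles with no measured value in the rule, though earlier results of these data were known: Alas1, Alad, Urod, Cpox, Fech, Hmox1, Hamp, Tfrc and Tf. A gene was read from probe sets annotated with its symbol alone, and the main probe set was the one with the highest mean over all arrays. That gave 8 genes with a value, out of 14217 genes with such a probe set. Tf, the plasma iron carrier transferrin, shared its probe sets with another gene and has no value here.

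Sprague Dawley rats, all male and aged 7 weeks when dosing began, received TBB in corn oil by gavage for 5 days, and liver RNA was taken 1 day after the last dose. The groups were corn oil vehicle (0 mg/kg, n = 5) and 0.05, 0.55, 5.50, 55 and 550 mg/kg TBB (n = 6 each), 35 arrays in all. The labels name separate samples but not separate animals, so each p-value rests on the spread among these samples, part of which could be technical. Every probe set has a log2 expression value, a scale on which a difference of 1 is a doubling. Pairs of arrays correlated at 0.988 to 0.996, and the 11 hepatocyte markers were bright on every array, with a mean level of 13.01 to 13.33.

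Heme is made in a chain of enzymes that starts and ends in the mitochondrion. Alas1, aminolevulinate synthase, is the rate-limiting step in liver; Alad, Urod and Cpox act along the chain, and Fech, ferrochelatase, inserts the iron. Cytochrome P450 enzymes hold heme, and in liver they are a main use of it; drugs that induce many P450s are known to raise Alas1. Hmox1, heme oxygenase, breaks heme down, Tfrc brings transferrin-bound iron into cells, and Hamp encodes hepcidin, the liver hormone that lowers iron export into blood. The question was whether the genes of heme supply follow the P450 genes across the doses.

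Promoter windows from 250 bases before to 50 bases after the start were held for 7 of the 9 genes in the RefSeq table of the rat assembly GRCr8. Those for Alas1, Fech and Hamp are shown because they are the first enzyme, the last enzyme and the iron hormone. Capitals mark GCGTG, the core of the binding site of the aryl hydrocarbon receptor (read as CACGC on the other strand), in Alas1 and Fech, and GGCGCC, a motif known from the BMP response of hepcidin, in Hamp. The windows lie at chr8:115768593-115768892, chr18:60248476-60248775 and chr1:95300222-95300521, all on the minus strand, and are written 5′ to 3′ along the gene.
Alas1: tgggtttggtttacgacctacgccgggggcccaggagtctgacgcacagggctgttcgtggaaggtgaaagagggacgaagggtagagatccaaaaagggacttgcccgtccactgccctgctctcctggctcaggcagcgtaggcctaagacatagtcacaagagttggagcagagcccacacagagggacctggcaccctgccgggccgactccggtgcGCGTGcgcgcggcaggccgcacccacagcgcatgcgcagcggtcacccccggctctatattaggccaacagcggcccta
Fech: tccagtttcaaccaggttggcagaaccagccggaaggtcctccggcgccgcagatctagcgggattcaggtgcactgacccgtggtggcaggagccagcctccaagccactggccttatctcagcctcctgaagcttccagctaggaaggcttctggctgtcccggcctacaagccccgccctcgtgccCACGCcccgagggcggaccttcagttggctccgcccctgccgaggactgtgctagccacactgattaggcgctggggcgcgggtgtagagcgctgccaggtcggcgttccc
Hamp: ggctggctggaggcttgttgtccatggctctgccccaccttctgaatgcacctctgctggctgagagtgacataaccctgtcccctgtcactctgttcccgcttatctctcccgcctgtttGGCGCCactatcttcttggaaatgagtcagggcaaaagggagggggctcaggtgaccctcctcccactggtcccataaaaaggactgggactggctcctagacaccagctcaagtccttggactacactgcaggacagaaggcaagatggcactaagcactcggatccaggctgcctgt
Both strands were searched. GCGTG was found once each in Alas1, Alad, Fech and Tfrc, and in 29.7% of all 33469 windows in the table. The Cyp1a2 window held none. The hepcidin motif, GGCGCC, was found once each in Urod, Fech, Hamp and Tfrc, and in 3688 of all windows. TTCNNNGAA, a STAT motif, was found once each in Alas1 and Hamp and in 8.9% of all windows. TGACCT, a nuclear receptor motif, was found in Tf and Cyp1a2 and in 16.2% of all windows. The core of the antioxidant response element, TGACNNNGC, was in none of the 7 genes and in 12.1% of all windows. A match is a run of letters and was not tested for binding.

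The P450 genes set the scale. Cyp1a1, which oxidises planar aromatic compounds, had values from 11.46 to 12.32 (median 11.85) at 550 mg/kg, against 4.63, 4.63, 4.23, 4.42 and 4.71 in vehicle. Cyp1a2, its liver-abundant relative, had values from 13.75 to 13.87 (median 13.82) at 550 mg/kg, against 12.84, 12.78, 12.68, 12.85 and 12.74 in vehicle. Neither gene overlapped with vehicle at 550 or at 55 mg/kg. Against vehicle, Cyp1a1 rose by 4.26 ± 0.24 (SE) at 55 mg/kg and by 7.34 ± 0.24 at 550 mg/kg, and Cyp1a2 by 0.47 ± 0.05 and 1.03 ± 0.05 (limma, adjusted p from 7.7e-22 to 1.5e-06). At 550 mg/kg 4 of 58 measured P450 genes rose and none fell, beside 0.354% of all probe sets that rose and 0.145% that fell. Besides Cyp1a1 and Cyp1a2 these were Cyp2j4 (0.41 ± 0.08, adjusted p = 0.0052) and the fatty acid hydroxylase Cyp4a1 (0.85 ± 0.14, adjusted p = 0.0008). At 55 mg/kg only Cyp1a1 and Cyp1a2 rose, out of the same 58, beside 0.00644% of all probe sets that passed.

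None of the 8 heme and iron genes passed the test in any comparison (limma, two-sided, Benjamini-Hochberg adjustment over 31042 probe sets, adjusted p under 0.05). At 0.05, 0.55 and 5.50 mg/kg against vehicle the count was 0 of 8, and 0% of all probe sets passed. At 55 mg/kg it was 0 of 8, against 0.00644% of all probe sets. At 550 mg/kg it was 0 of 8, against 0.499% of all (0.354% higher and 0.145% lower). Between 550 and 55 mg/kg it was 0 of 8, against 0.686% of all (0.577% higher and 0.11% lower), and for a straight line on dose rank 0 of 8, against 0.171%. With so few calls among all probe sets, a count of 0 among 8 is near the background. Before adjustment, p fell under 0.05 for 1, 0, 0 and 0 genes at 0.05, 0.55, 5.50 and 55 mg/kg, for 2 at 550 mg/kg, for 2 between 550 and 55 mg/kg and for 2 on dose rank. The matching shares of all probe sets were 6.05%, 3.86%, 4.95%, 4.2%, 8.67%, 9.43% and 9.42%. The median difference at 550 mg/kg was 0.105 for the 8 genes and 0.002 for all probe sets.

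**Figure D1:**
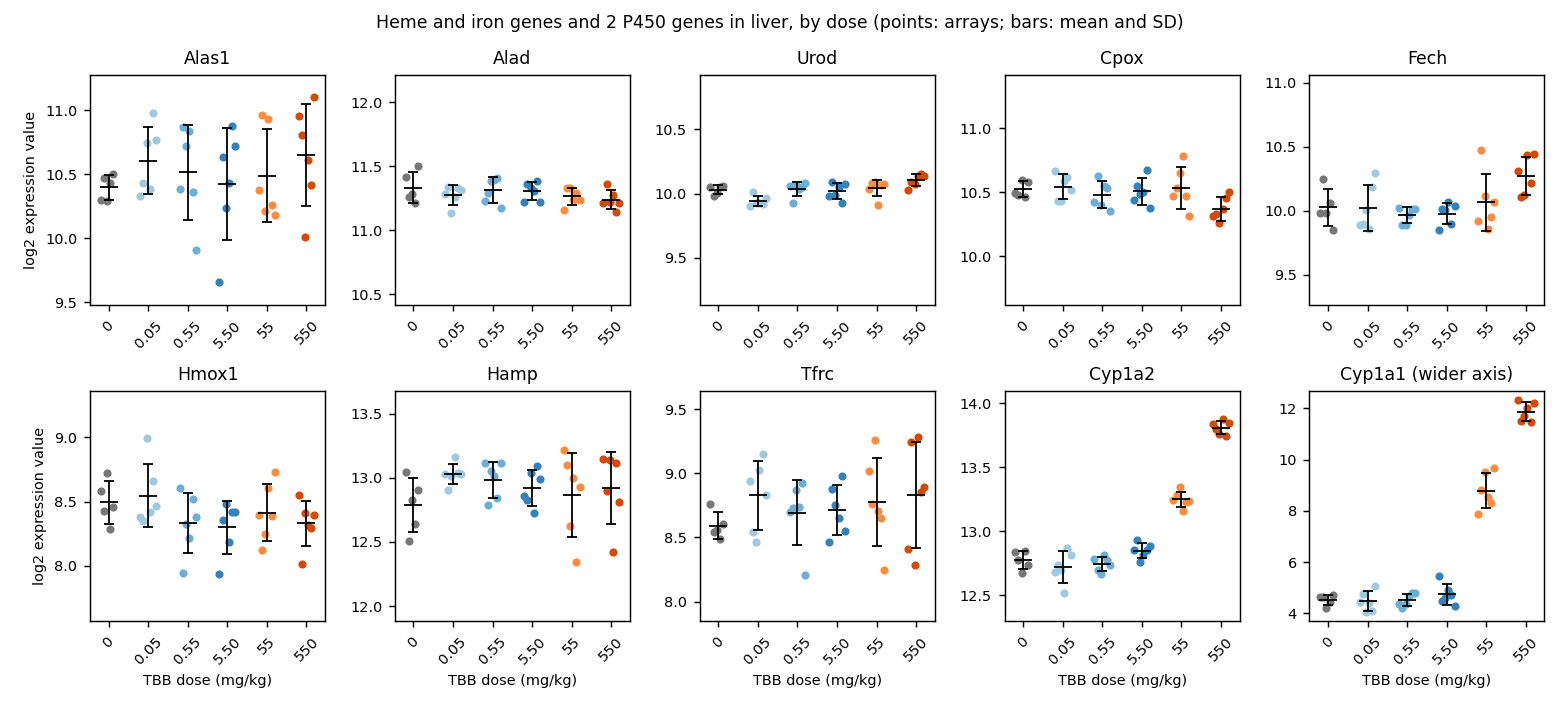
Log2 expression values (y axis) of the 8 measured heme and iron genes, Cyp1a2 and Cyp1a1 by TBB dose in mg/kg (x axis), 1 point per array, with mean and SD as bars. All panels span 1.8 log2 units except Cyp1a1, which spans 9. Cyp1a1 and Cyp1a2 stand clear of vehicle at 55 and 550 mg/kg, and every heme and iron gene overlaps with vehicle at both doses.

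Alas1, the rate-limiting enzyme, varied widely between arrays of the same dose. Its values ran from 10.01 to 11.10 (median 10.71) at 550 mg/kg, against 10.30, 10.47, 10.29, 10.43 and 10.50 in vehicle. At 550 mg/kg 4 of 6 arrays lay above the highest vehicle array and 1 lay below the lowest, so the groups overlapped. At each of 0.05, 0.55 and 5.50 mg/kg 3 of 6 lay above the highest vehicle array, and at 55 mg/kg 2 of 6 did. From vehicle upward, the group means were 10.40, 10.60, 10.51, 10.42, 10.49 and 10.65, with no steady order along the doses. The difference at 550 mg/kg was 0.25 ± 0.20 (95% interval -0.15 to 0.65, adjusted p = 0.79), a ratio of at most 1.57 at the upper end of the interval. At 55 mg/kg, where Cyp1a1 was already 19.1-fold higher than in vehicle, the Alas1 difference was 0.09 (-0.31 to 0.49, adjusted p = 1). With this spread, an Alas1 difference of about 0.80 would have been needed to pass the test at 550 mg/kg.

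Alad, the second enzyme of the chain, was measured far more tightly. It had values from 11.14 to 11.36 (median 11.22) at 550 mg/kg, against 11.42, 11.26, 11.28, 11.21 and 11.50 in vehicle, and the groups overlapped. Its difference was -0.09 ± 0.06 (-0.21 to 0.02, adjusted p = 0.69). Urod, which trims the side chains of the ring and is the enzyme lacking in porphyria cutanea tarda, had the smallest spread of the 8 genes. Its values ran from 10.03 to 10.15 (median 10.11) at 550 mg/kg, against 10.05, 9.98, 10.01, 10.05 and 10.06 in vehicle. At 550 mg/kg 5 of 6 Urod arrays lay above the highest vehicle array, yet the difference was only 0.07 ± 0.04 (-0.01 to 0.16, adjusted p = 0.66). At 0.05 mg/kg 5 of 6 lay below the lowest vehicle array (-0.09, adjusted p = 0.82). At 0.55, 5.50 and 55 mg/kg 3, 2 and 4 of 6 Urod arrays lay above the highest vehicle array.

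Cpox and Fech, which act late in the chain, were the 2 genes with unadjusted p under 0.05 at 550 mg/kg, and they lay on opposite sides of vehicle. Fech had values from 10.11 to 10.44 (median 10.26) at 550 mg/kg, against 9.98, 10.25, 9.99, 10.06 and 9.85 in vehicle. All 6 arrays at 550 mg/kg lay above the vehicle mean and 3 above the highest vehicle array. The Fech difference was 0.25 ± 0.09 (0.06 to 0.43, adjusted p = 0.33), and against 55 mg/kg it was 0.21 ± 0.09 (adjusted p = 0.40). Cpox had values from 10.26 to 10.50 (median 10.35) at 550 mg/kg, against 10.50, 10.47, 10.60, 10.47 and 10.58 in vehicle. Of the 6 Cpox arrays at 550 mg/kg, 5 lay below the lowest vehicle array and none lay above the vehicle mean. The Cpox difference was -0.15 ± 0.07 (-0.29 to -0.015, adjusted p = 0.49).

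Hmox1, the heme-degrading enzyme, had values from 8.02 to 8.55 (median 8.35) at 550 mg/kg, against 8.58, 8.43, 8.72, 8.28 and 8.46 in vehicle. The groups overlapped, with a difference of -0.17 ± 0.12 (-0.42 to 0.085, adjusted p = 0.77). Hmox1 is a known target of the stress regulator NRF2. A list of NRF2 genes, which also holds the regulators Nfe2l2 (NRF2 itself) and Bach1, had 9 measured genes. At 550 mg/kg 5 of these lay above vehicle and 4 below. Of the 9, 2 rose: the quinone reductase Nqo1 (1.76 ± 0.15, adjusted p = 2.8e-09) and glutathione reductase Gsr (0.45 ± 0.09, adjusted p = 0.014), beside 0.354% of all probe sets. The interval for Hmox1 ends below that for either gene (1.45 to 2.07 for Nqo1 and 0.26 to 0.64 for Gsr). The difference between these genes and Hmox1 was not tested.

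Hamp, the hepcidin gene, had values from 12.43 to 13.15 (median 13.01) at 550 mg/kg, against 13.04, 12.51, 12.83, 12.64 and 12.91 in vehicle. The groups overlapped, and the difference was 0.14 ± 0.12 (-0.12 to 0.39, adjusted p = 0.83). At 0.05 and 0.55 mg/kg all 6 Hamp arrays lay above the vehicle mean, with differences of 0.24 and 0.20 whose intervals included 0. Tfrc, the transferrin receptor, had values from 8.28 to 9.28 (median 8.87) at 550 mg/kg, against 8.76, 8.54, 8.56, 8.49 and 8.61 in vehicle. At 550 mg/kg 4 of 6 Tfrc arrays lay above the highest vehicle array and 2 below the lowest. At 0.05 mg/kg 4 of 6 also lay above the highest, and at 0.55, 5.50 and 55 mg/kg 2 of 6 did. The Tfrc difference at 550 mg/kg was 0.24 ± 0.16 (-0.10 to 0.57, adjusted p = 0.75), and a second, dimmer Tfrc probe set gave 0.29 ± 0.21 (adjusted p = 0.77).

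Each gene's difference between 550 mg/kg and vehicle was then set beside that of Cyp1a2 within the same arrays, a comparison chosen after seeing the data. The gene's difference less that of Cyp1a2 was -0.78 for Alas1, -0.79 for Fech and -0.80 for Tfrc. It ran from -0.90 for Hamp to -1.20 for Hmox1 in the other 5 genes. Cyp1a2 was taken because it was known to have risen, so these gaps hold its own rise, and they are given as sizes with no test.

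**Figure D2:**
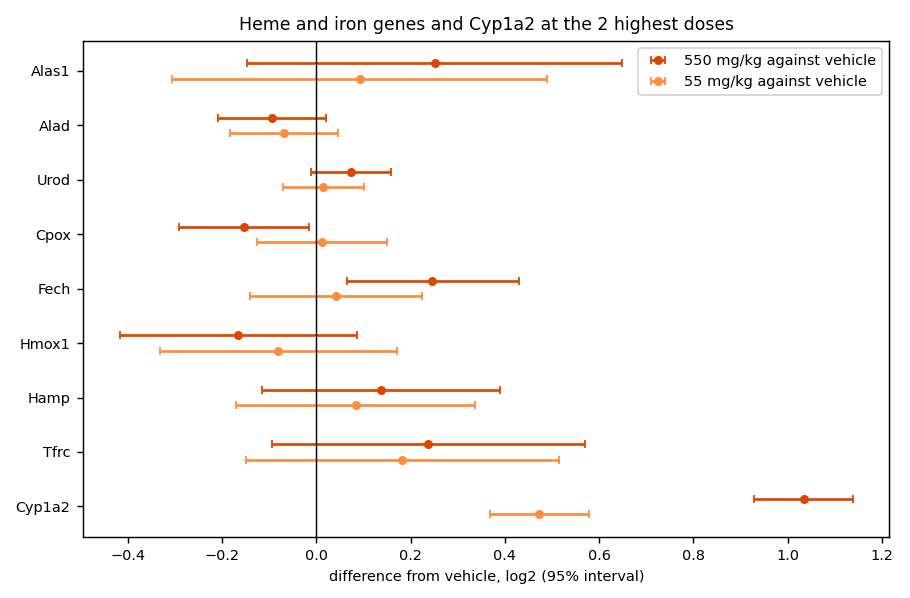
Differences from vehicle in log2 units (x axis) with 95% intervals for the 8 heme and iron genes and Cyp1a2 (rows), at 550 mg/kg (upper, dark) and 55 mg/kg (lower, light). The intervals of Cyp1a2 lie right of 0 at both doses, and no interval of the other 8 genes reaches that of Cyp1a2 at 550 mg/kg (0.93 to 1.14). At 55 mg/kg those of Alas1 (-0.31 to 0.49) and Tfrc (-0.15 to 0.51) overlap that of Cyp1a2 (0.37 to 0.58).

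Within dose groups, the question was whether arrays with more P450 message also had more message for heme supply. Each value was taken as its deviation from the mean of its dose group, and 16 relations with Cyp1a1 and Cyp1a2 were tested over 35 arrays. The relation that passed was Fech with Cyp1a2 (Pearson r = 0.56, permutation p = 0.002, adjusted p = 0.033; Spearman rho = 0.63, p = 0.00037, adjusted p = 0.0059). Without the 2 arrays farthest from the median of Cyp1a2 r was 0.51 (permutation p = 0.0065, adjusted p = 0.10), a value close to that over all arrays that no longer passed. Alas1 gave r = 0.24 with Cyp1a2 (adjusted p = 0.50) and r = -0.24 with Cyp1a1 (adjusted p = 0.50), neither past the threshold. Cyp1a1 means from vehicle to 5.50 mg/kg were 4.47 to 4.75, below the median value of any array (5.09 to 5.16). The pooled SD of Cyp1a2 within dose groups was 0.074, at percentile 2.7 of all probe sets. With values so low or so steady within groups, relations that did not pass cannot show whether heme supply follows P450 message.

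Other cells of the liver also hold these messages, and their markers were read beside the members. The mean level of 8 measured Kupffer cell markers ran from 8.12 to 8.79 at 550 mg/kg, against 8.51 to 8.90 in vehicle, with none of the 8 past the test. The 8 fitted differences at 550 mg/kg were all below 0 (median -0.218), with intervals that included 0. Differences below 0 also prevailed at the lower doses: 7, 8, 7 and 7 of 8 at 0.05, 0.55, 5.50 and 55 mg/kg, with medians of -0.125, -0.246, -0.14 and -0.067. The doses share the same 5 vehicle arrays as reference, so their counts are not separate evidence. Fewer cells of a type and less RNA per cell cannot be told apart in such tissue. Over 24 relations chosen after seeing the data, Hmox1 followed the Kupffer marker level within dose groups (Pearson r = 0.78, permutation p = 1e-05, the smallest it can give, adjusted p = 0.00012; Spearman rho = 0.73, adjusted p = 0.00024; r = 0.68 without the 2 farthest arrays). Alas1 followed the level of the 11 hepatocyte markers (r = 0.68, adjusted p = 0.00012; rho = 0.74, adjusted p = 0.00024; r = 0.68 without the 2 farthest arrays). Without Tat, a tyrosine-degrading enzyme of hepatocytes, the level of the remaining 10 markers gave r = 0.31 with Alas1 (permutation p = 0.10, rho = 0.36, p = 0.046). Without both Apoa1 and Tat the level of 9 markers gave r = 0.41 (permutation p = 0.022, rho = 0.50, p = 0.0053). The relation was thus weaker without Tat. Without any other 1 marker r was 0.60 to 0.71. The hepatocyte level ran from 13.04 to 13.11 at 550 mg/kg, against 13.12 to 13.27 in vehicle, without overlap. The 1 marker that fell was Apoa1, the main protein of HDL (-0.51 ± 0.06, adjusted p = 7.3e-06), and the next largest difference was that of the variable Tat (-0.42 ± 0.35, adjusted p = 0.81). The median of the 11 markers was -0.049, and without Apoa1 and Tat the level ran from 13.49 to 13.55 at 550 mg/kg, against 13.51 to 13.58 in vehicle, with overlap. None of the other 22 relations with marker levels passed. What part these marker levels have in the values of Hmox1 and Alas1 was not tested.

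**Figure D3:**
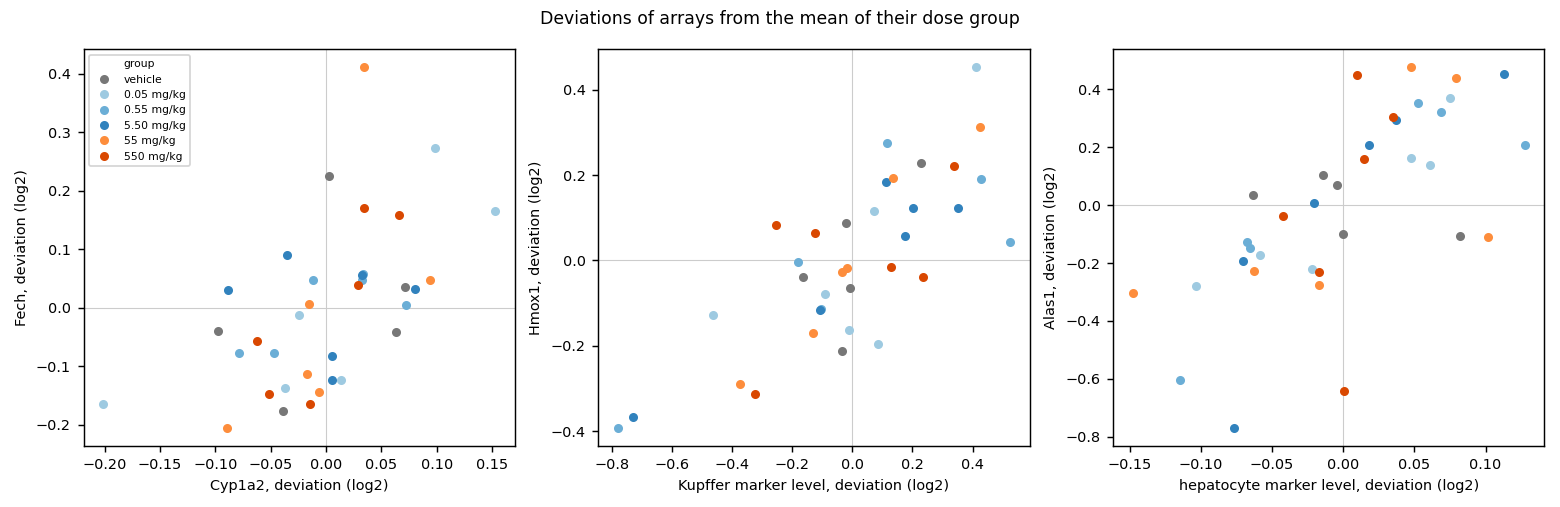
Deviations from the dose group mean in log2 units, 1 point per array, coloured by dose: Fech against Cyp1a2 (left), Hmox1 against the Kupffer marker level (middle) and Alas1 against the hepatocyte marker level (right). The points rise together in each panel, with r = 0.56, 0.78 and 0.68 over 35 arrays; without the marker Tat the value for Alas1 was 0.31.

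The other markers give the setting. The 7 measured red cell and erythroid markers had differences below 0 at 550 mg/kg (median -0.256), with none past the test: their level ran from 5.34 to 5.58 at 550 mg/kg, against 5.62 to 5.92 in vehicle. Most also lay below vehicle at the lower doses: 6, 7, 6 and 6 of 7 at 0.05, 0.55, 5.50 and 55 mg/kg. The medians there were -0.087, -0.042, -0.135 and -0.107. All doses were set against the same 5 vehicle arrays, so these counts are not independent of each other. Before adjustment 3 of the 7 had limma p under 0.05 at 550 mg/kg and 4 on dose rank, beside 8.67% and 9.42% of all probe sets. Among these markers, the erythroid synthase Alas2, the blood form of the first enzyme, had a difference of -0.54 ± 0.18 (adjusted p = 0.23) and beta globin Hbb one of -0.46 ± 0.15 (adjusted p = 0.23). In vehicle Hbb had a mean of 12.34 and Alas2 of 6.94, beside a level of 5.74 over all 7 markers. The remaining erythroid markers were thus dim, on average below the array medians of 5.09 to 5.16. No marker passed among 5 sinusoidal endothelial, 6 stellate cell, 4 cholangiocyte, 6 lymphocyte and 4 neutrophil genes. The members with the smallest p there were Stab1 (-0.24), Pdgfrb (-0.30), Spp1 (0.20), Cd3g (-0.31) and Cxcr2 (-0.10), with adjusted p from 0.35 to 0.86. The other 2 Pdgfrb probe sets gave 0.09 and 0.04.

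The neighbouring genes of heme and iron handling held a few small increases at 550 mg/kg, read beside the 0.354% of all probe sets that rose there. Biliverdin reductase Blvrb, which works on the product of heme breakdown, had values from 10.32 to 10.72 (median 10.54) at 550 mg/kg, against 10.35, 10.23, 10.32, 10.17 and 10.17 in vehicle. It rose by 0.29 ± 0.07 (adjusted p = 0.032), though the groups overlapped. It was the 1 gene of 12 measured for heme breakdown and transport that passed against vehicle; against 55 mg/kg the lysosomal heme exporter Slc48a1 passed as well (0.24 ± 0.06, adjusted p = 0.046), with 0.10 ± 0.06 against vehicle (adjusted p = 0.73). Without 1 array in turn, the Blvrb call was kept in 3 of 11 cases (without vehicle replicate 1, or 550 mg/kg replicate 3 or 5) and lost in 8 (highest adjusted p 0.10). The Slc48a1 call was kept in 3 of 12 cases (without 55 mg/kg replicate 3 or 6, or 550 mg/kg replicate 4) and lost in 9 (highest adjusted p 0.14).

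Iron sensing showed 2 further calls. Hfe, the hemochromatosis protein that acts upstream of hepcidin, had values from 8.66 to 8.84 (median 8.72) at 550 mg/kg, against 8.37, 8.55, 8.42, 8.50 and 8.42 in vehicle, and the groups did not overlap. The share of all probe sets without overlap was not counted. Lack of overlap here, and for Aco1 and Cyb5a below, therefore only describes genes named because they passed the test. Hfe rose by 0.29 ± 0.07 (adjusted p = 0.040), the 1 call among 19 measured genes of hepcidin control, while Hamp itself did not pass. Hamp would have needed a difference of about 0.51 to pass, and its interval (-0.12 to 0.39) holds the Hfe value. The difference between the 2 genes was not tested. Aco1, the cytosolic aconitase that doubles as iron regulatory protein and binds Tfrc message, had values from 9.91 to 10.24 (median 10.05) at 550 mg/kg, against 9.71, 9.76, 9.69, 9.82 and 9.80 in vehicle. Aco1 rose by 0.30 ± 0.07 against vehicle (adjusted p = 0.024) and by 0.35 ± 0.06 against 55 mg/kg (adjusted p = 0.0025), without overlap with vehicle. It was the 1 call among 15 measured genes of iron regulation and iron-sulfur clusters. Of these 15 genes, 12 lay above vehicle at 550 mg/kg and 3 below, with a median of 0.085 beside 0.002 for all probe sets. Before adjustment 5 of the 15 had limma p under 0.05 at 550 mg/kg and 5 on dose rank. The matching shares of all probe sets were 8.67% and 9.42%. Leaving out 1 array kept the Hfe call in 1 of 11 cases (without vehicle replicate 2) and lost it in 10 (highest adjusted p 0.14). It lost the Aco1 call in 5 of 11 (without vehicle replicate 1 or 3, or 550 mg/kg replicate 2, 3 or 6; highest adjusted p 0.089).

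The P450 electron donors held 1 call. Cyb5a, cytochrome b5, a heme protein that passes electrons to P450s, had values from 13.49 to 13.68 (median 13.56) at 550 mg/kg, against 13.36, 13.36, 13.23, 13.33 and 13.27 in vehicle. It rose by 0.27 ± 0.04 (adjusted p = 0.00022) without overlap, and along dose rank by 0.05 per step (adjusted p = 0.0056). It was the 1 call of 5 measured electron donors, beside 0.354% of all probe sets that rose. Of the 5, 4 lay above vehicle and 1 below, with a median of 0.104 beside 0.002 for all probe sets. Before adjustment 2 of the 5 had limma p under 0.05, beside 8.67% of all probe sets. The Cyb5a call was kept without any 1 of the 11 arrays (highest adjusted p 0.0022). With only the 2 groups compared in the fit, the adjusted p of Cyb5a was 0.10.

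**Figure D4:**
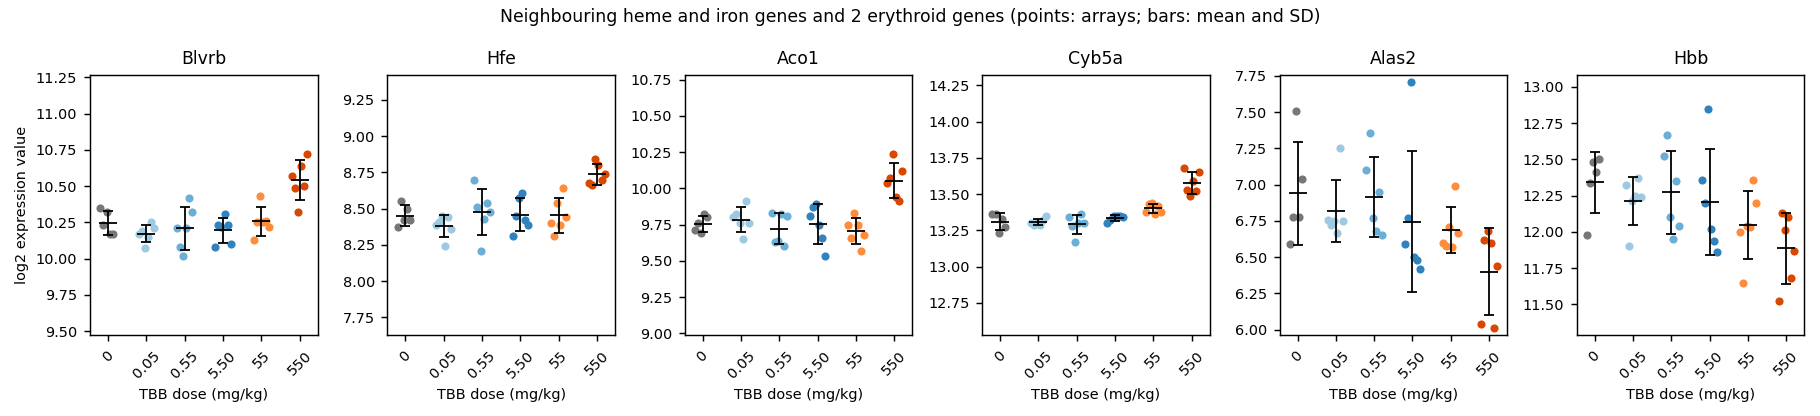
Log2 expression values (y axis, each panel spanning 1.8 log2 units) of Blvrb, Hfe, Aco1, Cyb5a, Alas2 and Hbb by TBB dose in mg/kg (x axis), 1 point per array, with mean and SD as bars. Hfe, Aco1 and Cyb5a at 550 mg/kg lie above all vehicle arrays, and Alas2 and Hbb have their lowest mean at 550 mg/kg.

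The remaining lists had no call at 550 mg/kg against vehicle. Of 10 other measured genes of heme synthesis, 6 lay above and 4 below vehicle, with a median of 0.113 beside 0.002 for all probe sets. Before adjustment 4 of these 10 had p under 0.05 at 550 mg/kg and 5 on dose rank, beside 8.67% and 9.42% of all probe sets. The 4 lay on both sides of vehicle: Abcb6, Tmem14c and the mitochondrial protease subunit Clpx (0.24) above it, and Alas2 below. The smallest p there belonged to the porphyrin transporter Abcb6 (0.19 ± 0.06, adjusted p = 0.17). Tmem14c, a mitochondrial protein of heme precursor transport, had 0.21 ± 0.06 (adjusted p = 0.18); it and Clpx were named after their values were seen. Of 6 genes of iron storage and export, the ferritin autophagy receptor Ncoa4 came closest (-0.13 ± 0.06, adjusted p = 0.45). Of 11 genes of iron uptake it was Lrp1 (0.25 ± 0.09, adjusted p = 0.33), whose other probe set gave 0.02. Among 9 other heme proteins it was Hbb, given above, and among 8 genes of fasting and Alas1 control it was Foxo1 (0.16 ± 0.10, adjusted p = 0.72; -0.03 and -0.02 by its other probe sets).

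Genes most like each member were ranked by Pearson r of deviations from dose group means over 35 arrays, among 9559 genes with a mean at or above the median. Arrays share their RNA sample and normalization across genes, so these values are descriptions. Alas1 was most like the bile acid receptor Nr1h4 (0.86), Ccnk (0.85) and Mcur1 (0.83). Hmox1 was most like the prostaglandin synthase Ptgs1 (0.84), the cytokine Il1b (0.81) and Apol3l1 (0.80). Alad was most like Ppp2r1a (0.81), Samm50 (0.71) and Ccs (0.70), and Urod most like Atp5mpl (0.80), Cops6 (0.79) and Cox8a (0.76). Cpox was most like the mitochondrial chaperone Hspa9 (0.74), Scly (0.73) and Hnrnpa3 (0.72), and Fech most like Slc43a1 (0.71), Rarres1 (0.70) and Mtch2 (0.67). Tfrc was most like Accs (0.67), Tubb4b (0.67) and Tuba4a (0.65), and Hamp had the weakest likeness, with Aqr (0.63), Naif1 (0.59) and Tnrc18 (0.57). Among the 28 pairs of members, r was highest for Cpox with Tfrc (0.56) and lowest for Urod with Cpox (-0.44).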

How the data were processed

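The authors deposited log2 values per probe set, made with RMA and affy per the submitters' processing notes, in versions not given in the sources used here. RMA by its usual definition equalises the arrays' distributions, which hides a change common to most genes, and precision is limited by how many arrays a group has. The table held 31099 rows, of which 31042 were tested after removal of 57 controls. By the platform annotation 20826 probe sets had 1 symbol, 436 several and 9780 none; 20758 matched the GRCr8 gene table, used for names alone. Fits used limma 3.58.1 in R 4.3.3, with 1 mean per group over all 35 arrays or a line on dose rank 0 to 5; the package of the design text was not used. The fit was tested on simulated data. Correlations used 100000 permutations within dose groups. Figures used Python 3.11.15 and matplotlib 3.10.9. Members, the 10 pathway and 8 cell type lists and the tests were chosen with earlier results of these data known. Named were the members, Cyp1a1, Cyp1a2, called P450 and list genes, the smallest p of a list without a call, and the 3 genes most like each member. The alternatives were dim probe sets left out, other normalizations, variance settings, array weights, only the groups compared, a replicate block, 1 array left out, the mean of a gene's probe sets and a 1.5-fold minimum.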

Additional observations from a re-analysis of the deposited data

Results flagged for a closer look

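Of 90 dose groups of single genes checked, 4 held an array far from the others by Dixon's criterion, and chance flags about 1 in 20 groups. Urod was 9.93 in 0.55 mg/kg replicate 2 (nearest array 10.03) and 9.91 in 55 mg/kg replicate 4 (nearest 10.03). Tfrc was 8.21 in 0.55 mg/kg replicate 6 (nearest 8.70), and Slc48a1 was 7.15 in 550 mg/kg replicate 4 (nearest 7.28).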

How the results depend on the processing

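No heme or iron gene passed the test under any alternative: all 146 counts were 0, those with 1 array left out included (lowest 0, highest 0), and the lowest adjusted p was 0.086. All 1120 member values kept their side of the threshold. The count of relations with P450 genes past the threshold was 1, and 0 without the 2 farthest arrays and 0 with cyclic loess (Fech with Cyp1a2, r = 0.54, adjusted p = 0.065); the cause was not tested. The replicate numbers showed no pairing common to all samples. Over 85 same-numbered pairs the median correlation of deviations was -0.009 (from -0.306 to 0.269, with 17 over 0.1), against -0.001 for other pairs. Of 35 arrays, 4 correlated best with their own number. Pairing of only some arrays or genes was not tested. With the replicate block 0 members passed, and 115 probe sets passed at 550 mg/kg against vehicle, beside 155 without it. Over all alternatives the highest adjusted p at 550 mg/kg against vehicle was 0.20 for Blvrb, 0.14 for Hfe, 0.13 for Aco1 and 0.10 for Cyb5a. With 5 or 6 arrays a group, a gene as variable as Alas1 passes only for differences near 0.80.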

Other observations

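The members differed in how much they varied between arrays of 1 dose. Pooled within dose groups, the SD was 0.345 for Alas1 and 0.286 for Tfrc, at percentiles 97.1 and 95.2 of all probe sets, beside a median of 0.141. Urod (0.053) and Alad (0.085) were among the steadiest, at percentiles 0.428 and 5.42. The spread of Alas1 was 0.26, 0.37, 0.44, 0.36 and 0.40 from 0.05 to 550 mg/kg, beside 0.10 in vehicle. For Tfrc it was 0.27, 0.26, 0.20, 0.34 and 0.41 in the same order, beside 0.10 in vehicle. These spreads are descriptions, and a difference in spread was not tested.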
